A study of Mus musculus with 2 samples.

Results

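The histone genes of sorted mouse cortical cells are described here, taken as every row of the RNA sequencing tables whose symbol starts with Hist1h, Hist2h, Hist3h, Hist4h, H2af or H3f3, or is H1f0 or H1fx. These were 79 of the 20373 listed genes. By class, 68 were replication-dependent genes of the Hist1 to Hist4 clusters and 11 were replacement variants (H1f0, H1fx, H3f3a, H3f3b and 7 H2af genes). The rule uses names alone and no measured value.

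RNA was measured in 2 cell populations of the cortex at embryonic day 15.5, with 1 library of each. Embryos came from heterozygous Nestin-GFP mice crossed with homozygous DCX-mRFP mice, and only cortices of embryos positive for both reporters were used, so both groups carry both transgenes. Nestin sequences drive the green reporter in neural progenitor cells (NPCs) and doublecortin (Dcx) sequences drive the red reporter in young neurons. Cells sorted as green were taken as NPCs and cells of double colour as neurons, so the neuron gate holds cells that still carry the green protein. How many embryos were pooled is not given in the sources used here. With 1 library per group no difference was tested across samples and no p-value is given.

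Histones package DNA. Pairs of H2A, H2B, H3 and H4 form the core of the nucleosome and H1 binds the linker between nucleosomes. Replication-dependent histone genes lie in clusters, lack introns in most cases and are transcribed mainly in S phase, and their mRNAs end in a conserved stem-loop bound by the stem-loop binding protein Slbp instead of a poly(A) tail. Replacement variants come from genes outside those clusters, most of them with introns, give polyadenylated mRNAs throughout the cell cycle, and supply chromatin in cells that have stopped dividing, which include neurons. Some clustered genes also give polyadenylated mRNA in differentiated cells. Whether the library kit selected polyadenylated RNA is not given in the sources used here.

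The stem-loop was searched as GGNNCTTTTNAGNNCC, on the transcript strand only, in the longest GENCODE M21 transcript of each member. All 79 symbols had a transcript. The motif stood in 43 of the 68 replication-dependent genes and in 1 of the 11 variants, H2afx, against 25 of 21799 other protein-coding genes (0.115%). The sequences below show this element, which was found more often in the replication-dependent class but not in all of its models, with the motif in capitals and 5 flanking bases on each side, for the members on which the results turn.
Hist3h2a: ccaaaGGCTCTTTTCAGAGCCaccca
Hist3h2ba: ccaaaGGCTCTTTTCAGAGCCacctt
Hist1h1c: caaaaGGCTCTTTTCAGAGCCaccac
Hist2h3c1: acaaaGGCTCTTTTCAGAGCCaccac
Hist1h3b: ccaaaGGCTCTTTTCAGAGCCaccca
Hist1h3c: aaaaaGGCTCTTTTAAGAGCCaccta
Hist1h4i: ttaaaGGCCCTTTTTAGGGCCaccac
H2afx: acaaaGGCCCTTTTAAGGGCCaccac
The form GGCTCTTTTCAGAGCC was the most frequent, in 25 of the 44 members with a motif. The transcript models differ in how far they run past the stem-loop. In Hist3h2a the model continues for 1643 bases, in Hist2h3c1 for 1167, in Hist1h1c for 840, in H2afx for 822, in Hist1h4i for 330 and in Hist3h2ba for 169. In Hist1h3c it continues for 74 bases and in Hist1h3b for 51. A model that lacks the motif says only that these letters are not in that model.

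Reads on all listed genes numbered 26346226 for NPCs and 23312054 for neurons. Levels are in CPM, counts per 1000000 of the mean library sum. A level of 1 CPM stands for 26.97 reads among NPCs and 22.8 among neurons, and 3 reads, the limit a count of 0 allows, stand for 0.111 and 0.132 CPM. Nes stood at 409 CPM in NPCs and 189.5 in neurons, and Dcx at 2522 and 3294 CPM. Marker lists of other cell types also differed between the libraries. Pericyte markers summed to 202 CPM in NPCs and 9.35 in neurons (6 of 6 at least 2-fold higher in NPCs), endothelial markers to 15.5 and 1.89 (5 of 6) and oligodendrocyte lineage markers to 45.6 and 1.80 (4 of 4). Microglial markers summed to 28.0 and 117 CPM (6 of 7 at least 2-fold higher in neurons) and red cell markers to 151 and 142 CPM, with none called. The red cell sums include both Hba-a1 and Hba-a2, whose values are identical (60.7 CPM in NPCs and 56.9 in neurons). These sums may therefore count the same reads more than once. No marker of these lists was at 0 in either library, and their part in the histone results was not tested. Fewer cells of a type and less RNA per cell cannot be told apart in these bulk libraries.

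Replacement variants held most histone reads in both libraries. Selection of polyadenylated RNA, which is not stated for these libraries, would bear on this share, and its effect was not tested. Of all reads on the members, 93.5% fell on variants in NPCs (95% Clopper-Pearson interval 93.3 to 93.7) and 90.8% in neurons (90.6 to 91.0). All members together took 0.341% of the reads in NPCs and 0.276% in neurons. Intervals here and below come from read numbers and cover counting error only, because the reads carry no molecular identifiers and may be copies of a molecule. By type, variants made up 98.7% of H1 reads in NPCs and 97.9% in neurons, 93.6% and 88.5% of H2A reads, and 99.2% and 99.6% of H3 reads. No H2B or H4 gene is among the variants.

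A gene counts as called when log2((neuron CPM + 1)/(NPC CPM + 1)) passed 2-fold in either direction and the gene reached 1 CPM in a library. Of 12693 genes past that level, 6.73% were called higher in NPCs and 3.85% higher in neurons, and the median log2 ratio was -0.0049. Of the variants, 10 of 11 passed that level and 0 were called. Their median log2 ratio was -0.19, with 7 higher in NPCs and 3 higher in neurons. H2afb1, the variant that did not pass, had 1 read in NPCs and 0 in neurons. Summed over variants, the level was 3112 CPM in NPCs and 2566 CPM in neurons, a ratio of 1.21 (1.2002 to 1.2258).

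**Figure D1:**
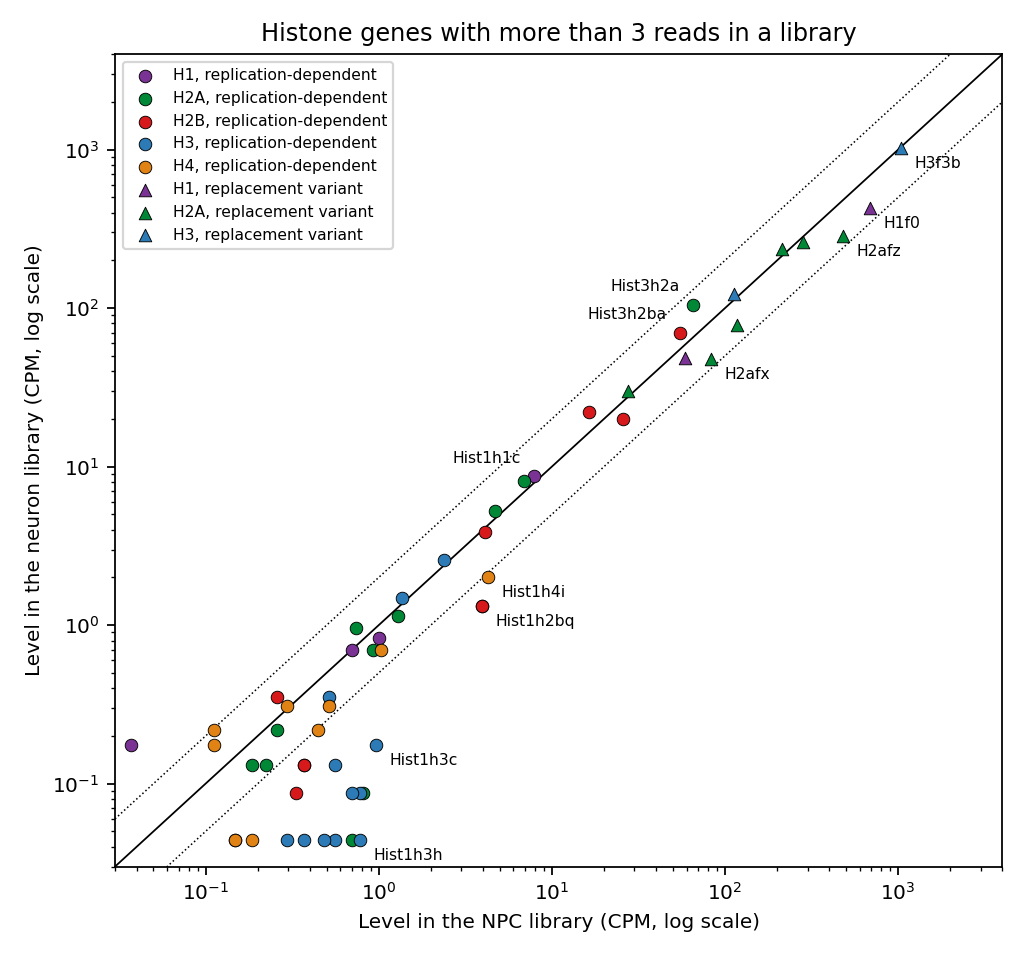
Level of each histone gene with more than 3 reads in a library, NPC library on the horizontal axis and neuron library on the vertical axis, both in CPM on log scales, with circles for replication-dependent genes, triangles for variants, colours for the histone type, a solid line at equality and dotted lines at 2-fold. The variants lie at the upper right from H2afj (27.5 CPM in NPCs) to H3f3b (1045 CPM), inside the dotted lines, and most replication-dependent genes lie under 1 CPM.

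The H3 variants stood at nearly the same level in both libraries. H3f3b, which encodes the replacement H3, stood at 1045 CPM in NPCs and 1025 CPM in neurons, a ratio of 1.02 (1.002 to 1.037). It had the most reads of any histone gene in both libraries. H3f3a, another gene for the same protein, stood at 113 CPM in NPCs and 122 CPM in neurons, a neuron to NPC ratio of 1.08 (1.03 to 1.14). H3f3b made up 90.2% of the reads of this pair in NPCs and 89.4% in neurons. Their sum was 1157 and 1147 CPM, a ratio of 1.01 (0.993 to 1.03). Of the H3f3a transcript, 30.3% of the 50-base words also occur in transcripts of 41 other genes, none of them a member.

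Both linker variants were higher in NPCs. H1f0, known as the linker histone of cells leaving division, stood at 689 CPM in NPCs and 430.2 CPM in neurons, a ratio of 1.60 (1.56 to 1.64). H1fx stood at 58.4 and 48.6 CPM, a ratio of 1.202 (1.11 to 1.30). H1f0 made up 91.0% of all H1 reads in NPCs and 87.9% in neurons.

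The H2A variants split into 4 that were higher in NPCs and 2 that were higher in neurons. H2afz and H2afv encode the H2A.Z proteins found at promoters. H2afz stood at 483 CPM in NPCs and 287 CPM in neurons, a ratio of 1.68 (1.63 to 1.73), and H2afv at 117 and 78.0 CPM, a ratio of 1.502 (1.42 to 1.59). Of the H2afz transcript, 69.6% of the 50-base words occur in other genes, and Tmcc1 alone holds 60.8% of the transcript's words, so its reads may not all be its own. H2afx, whose protein is phosphorylated at DNA breaks and whose transcript carries the stem-loop shown above, stood at 83.3 and 48.0 CPM, a ratio of 1.74 (1.61 to 1.87), the largest among the 10 variants.

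The macroH2A genes, whose products carry a large non-histone domain and are associated with repressed chromatin, differed little and in opposite directions. H2afy stood at 283 CPM in NPCs and 262 CPM in neurons, a ratio of 1.08 (1.04 to 1.12). H2afy2 stood at 214 and 235 CPM and was 1.10-fold higher in neurons (1.06 to 1.14). H2afy therefore made up 57.0% of the reads of the pair in NPCs (56.1 to 57.8) and 52.7% in neurons (51.8 to 53.6). H2afj stood at 27.5 and 29.9 CPM, with an interval of the neuron to NPC ratio that holds 1 (0.979 to 1.21).

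Between genes, levels are compared per kilobase of the longest transcript. On that scale H2afz led in NPCs with 452 CPM per kb, followed by H3f3b with 415 and H1f0 with 335. In neurons H3f3b led with 408 CPM per kb, followed by H2afz with 268 and H1f0 with 209. H2afy stood at 138 and 128 CPM per kb, and H2afy2 at 98.2 and 108. H3f3a, with a longer transcript, stood at 39.7 and 43.0 CPM per kb. Among replication-dependent genes Hist3h2ba was the highest, at 89.4 CPM per kb in NPCs and 114 in neurons, above H2afv at 71.7 and 47.8. Hist3h2a stood at 30.6 and 48.9 CPM per kb.

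**Figure D2:**
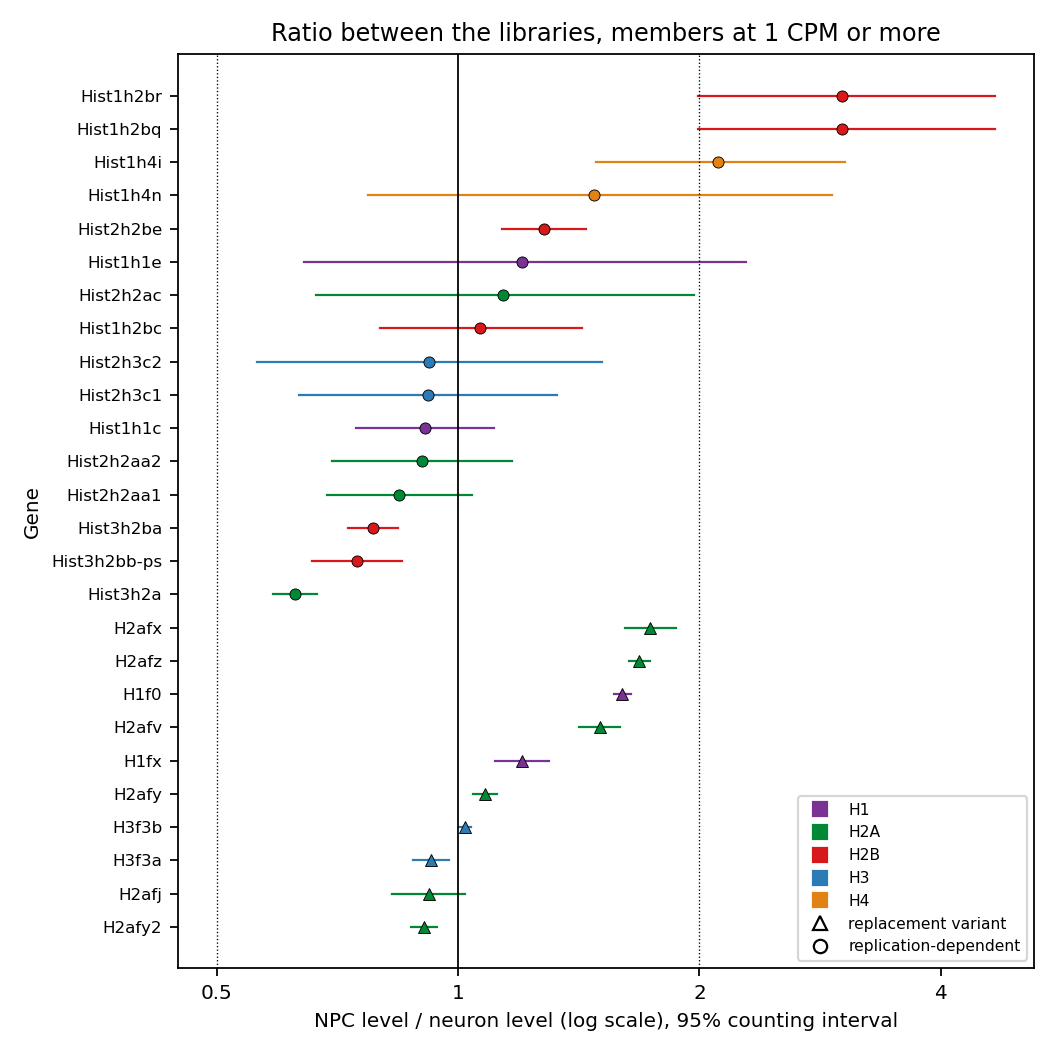
Ratio of the NPC level to the neuron level for the 26 members with at least 1 CPM in a library, on a log axis, with the 95% counting interval from the reads, circles for replication-dependent genes and triangles for variants, and dotted lines at 2-fold in each direction. The variants run from H2afy2 (0.908) to H2afx (1.74), and the replication-dependent genes from Hist3h2a (0.626) to Hist1h2bq and Hist1h2br (3.01).

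The replication-dependent genes were low and mixed in direction. Of 68 members, 6 had no read in either library (Hist1h2ak, Hist1h2ba, Hist1h1t, Hist1h2aa, Hist1h4f and Hist2h2bb), 47 had more than 3 reads in a library and 16 reached 1 CPM. Of those 16, 2 were called higher in NPCs and 0 higher in neurons, beside 6.73% and 3.85% of all genes. The 2 were Hist1h2bq and Hist1h2br, whose deposited values are identical and which count as 1 measurement. The median log2 ratio of the 16 was -0.0007, with 8 higher in NPCs and 8 higher in neurons. With the identical pair counted once, 1 of 15 was called higher in NPCs, and the median was 0.072, with 7 higher in NPCs and 8 higher in neurons. The 8 include Hist2h2aa1 and Hist2h2aa2, copies that may hold the same reads. Summed over all 68, with the identical pair counted once, the level was 216 CPM in NPCs and 259.8 CPM in neurons, 1.202-fold higher in neurons (1.16 to 1.25).

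Most of that sum lay in the Hist3 cluster. Its 3 genes held 63.4% of replication-dependent reads in NPCs (62.2 to 64.6) and 75.8% in neurons (74.7 to 76.9). Hist3h2a, which encodes an H2A, stood at 65.7 CPM in NPCs and 104.9 CPM in neurons and was 1.598-fold higher in neurons (1.502 to 1.70). Without it, the summed replication-dependent level had an NPC to neuron ratio of 0.971, against 0.832 with it. Of the Hist3h2a transcript, 31.5% of the 50-base words also lie in Trim17, which overlaps it. Hist3h2ba, an H2B gene, stood at 54.9 and 70.1 CPM and was 1.28-fold higher in neurons (1.19 to 1.37). Hist3h2bb-ps, a pseudogene by its symbol, stood at 16.5 and 22.0 CPM, a neuron to NPC ratio of 1.34 (1.17 to 1.52). Summed, the cluster was 1.44-fold higher in neurons (1.38 to 1.502). The Hist1 and Hist2 sums, given below, were higher in NPCs, and Hist4 adds few reads. The higher class sum in neurons therefore rests on the Hist3 cluster. The class ratio without this cluster was not computed.

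Genes of the Hist2 cluster lay close to equality. The 10 genes summed to 43.8 CPM in NPCs and 39.9 CPM in neurons, a ratio of 1.10 (1.008 to 1.2002). Hist2h2be, an H2B gene with no 50-base word in another gene, stood at 25.6 and 20.02 CPM, a ratio of 1.28 (1.14 to 1.44). It held 691 of the 1182 reads of the cluster in NPCs and 456 of the 908 in neurons. The ratio was 0.908 for the Hist2 H2A genes (0.782 to 1.05) and 0.962 for the Hist2 H3 genes (0.730 to 1.27). The Hist2 sum without Hist2h2be was not computed, so a shift across the cluster is not shown. Hist2h2aa1 stood at 6.90 and 8.16 CPM and Hist2h2aa2 at 4.71 and 5.22 CPM. The transcripts of these H2A genes lie wholly in other genes by 50-base words. All words of Hist2h2aa2 occur in Hist2h2aa1, and 89.2% of those of Hist2h2aa1 occur in other members. These H2A genes are therefore not separate observations. Hist2h3c1 stood at 2.37 and 2.59 CPM, Hist2h3c2 at 1.37 and 1.49 CPM and Hist2h2ac at 1.30 and 1.14 CPM. Each of these 5 had an interval that holds 1.

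The Hist1 cluster, with 54 genes, summed to 34.998 CPM in NPCs and 22.6 CPM in neurons, a ratio of 1.55 (1.39 to 1.73). It held 16.2% of replication-dependent reads in NPCs and 8.70% in neurons. By type, the ratio was 0.937 for H1 (0.783 to 1.12), 1.91 for H2A (1.29 to 2.88), 1.57 for H2B (1.27 to 1.94), 1.89 for H4 (1.45 to 2.48) and 7.81 for H3 (4.65 to 14.0). The interval for the linker genes holds 1, and those of the 4 core types lie above it. For H2A this rests on Hist1h2ao and Hist1h2ap, without which 45 and 35 reads remain, a ratio of 1.09 (0.683 to 1.74). For H2B, Hist1h2bq holds 107 of the 260 reads in NPCs and 30 of the 140 in neurons, with its identical pair counted once. For H4, Hist1h4i holds 115 of the 186 reads in NPCs and 46 of the 83 in neurons. The H2B ratio without Hist1h2bq and the H4 ratio without Hist1h4i were not computed. A shift across the H2B genes or across the H4 genes is therefore not shown.

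**Figure D3:**
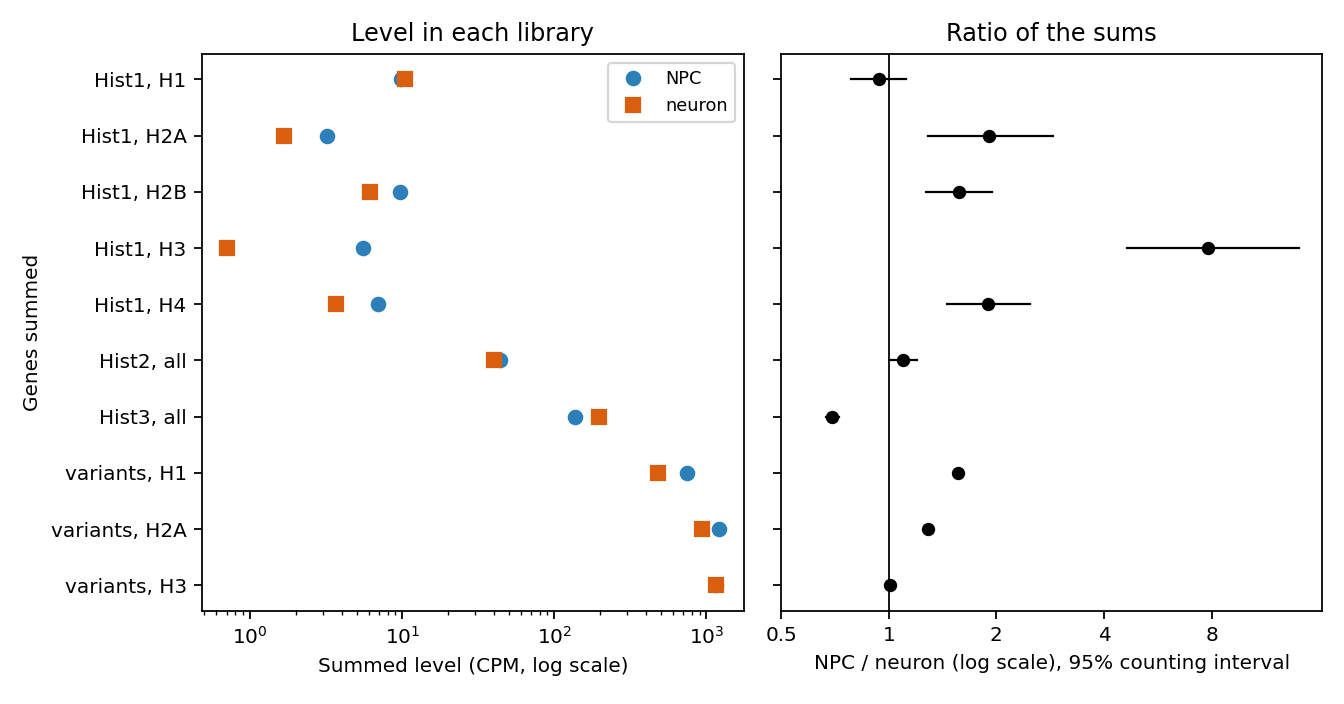
Summed level of histone genes by cluster and type in each library (left, CPM on a log axis, circles for NPC and squares for neuron) and the NPC to neuron ratio of each sum with its 95% counting interval (right, log axis). The Hist3 sum lies to the left of 1 (0.695), the Hist1 H3 sum lies farthest to the right (7.81), and the variant H3 sum lies at 1.01.

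Among single Hist1 genes past 1 CPM, Hist1h1c, a linker gene, stood at 7.90 CPM in NPCs and 8.69 CPM in neurons, with an interval of the NPC to neuron ratio that holds 1 (0.745 to 1.11). Hist1h4i, an H4 gene, stood at 4.26 and 2.02 CPM, a ratio of 2.11 (1.49 to 3.04). With 1 CPM added to both its log2 ratio was -0.80, so it was not called. Hist1h2bc stood at 4.12 and 3.86 CPM, Hist1h4n at 1.04 and 0.702 CPM and Hist1h1e at 1.001 and 0.834 CPM, each with an interval that holds 1. Hist1h2bq and Hist1h2br, H2B genes, stood at 3.97 and 1.32 CPM, a ratio of 3.01 (1.99 to 4.68). All 50-base words of the Hist1h2bq transcript occur in Hist1h2br.

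Adding 1 CPM shrinks the ratio of genes near or below 1 CPM, and 52 of the 68 replication-dependent genes lay below it in both libraries. A second rule, chosen after the data were seen, therefore took genes with more than 3 reads in a library, a plain ratio of at least 2 and a counting interval that leaves out 1. By this rule 13 of the 47 replication-dependent genes were higher in NPCs and 0 higher in neurons, beside 9.27% and 6.26% of 14546 genes. With the identical pair counted once these were 12 of 46. Of the variants, 0 of 10 were. The 13 were Hist1h4i, Hist1h2bq, Hist1h2br, Hist1h2ao, Hist1h2ap and 8 of the 9 Hist1h3 genes. Of these 13, 10 lay under 1 CPM in both libraries, where the share among all genes was 10.8% higher in NPCs and 7.93% higher in neurons. The replication-dependent genes under 1 CPM summed to 393 reads in NPCs and 153 in neurons, a ratio of levels of 2.17 (1.80 to 2.63). By type, H3 genes held 162 and 24 of these reads, a ratio of 5.70 (3.70 to 9.16), and H2A genes had a ratio of 1.74 (1.24 to 2.45). The ratios of H1 (0.965, 0.515 to 1.82), H2B (1.61, 0.941 to 2.84) and H4 (1.43, 0.904 to 2.28) had intervals that hold 1.

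The Hist1h3 genes, which encode replication-dependent H3, were singled out after their values were seen. They had 15 reads in NPCs and 1 in neurons for Hist1h3a, 21 and 2 for Hist1h3b, 26 and 4 for Hist1h3c, 15 and 3 for Hist1h3d, and 13 and 1 for Hist1h3e. Hist1h3f had 10 and 1, Hist1h3g 8 and 1, Hist1h3h 21 and 1, and Hist1h3i 19 and 2. All 9 had more reads in the NPC library, and all but Hist1h3g had an interval above 1. Single ratios ran from 4.22 in Hist1h3d (1.19 to 22.8) to 17.7 in Hist1h3h (2.85 to 734). Together they had 148 reads in NPCs and 16 in neurons, or 5.49 and 0.702 CPM.

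The H3 genes of the Hist2 cluster had like reads in both libraries. Hist2h3b had 14 and 8 reads, Hist2h3c1 had 64 and 59, and Hist2h3c2 had 37 and 34. Their summed ratio was 0.962 (0.730 to 1.27). The difference between this ratio and that of the Hist1h3 sum was not tested. The Hist1h3 transcripts share much of their sequence, with a median of 54.1% of 50-base words found in other genes (24.8 to 93.9%), but at most 18.8% in members of other clusters. How a read that fits several copies was counted is not given. Hist1h2bq and Hist1h2br, which share nearly all their words, hold identical counts (107 reads in NPCs and 30 in neurons each). The sums may therefore count a read more than once, which would make their intervals too narrow. For the same reason the 9 genes are not 9 independent measurements. The Hist1h3 reads are 26 or fewer per gene, and no value here is replicated.

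**Figure D4:**
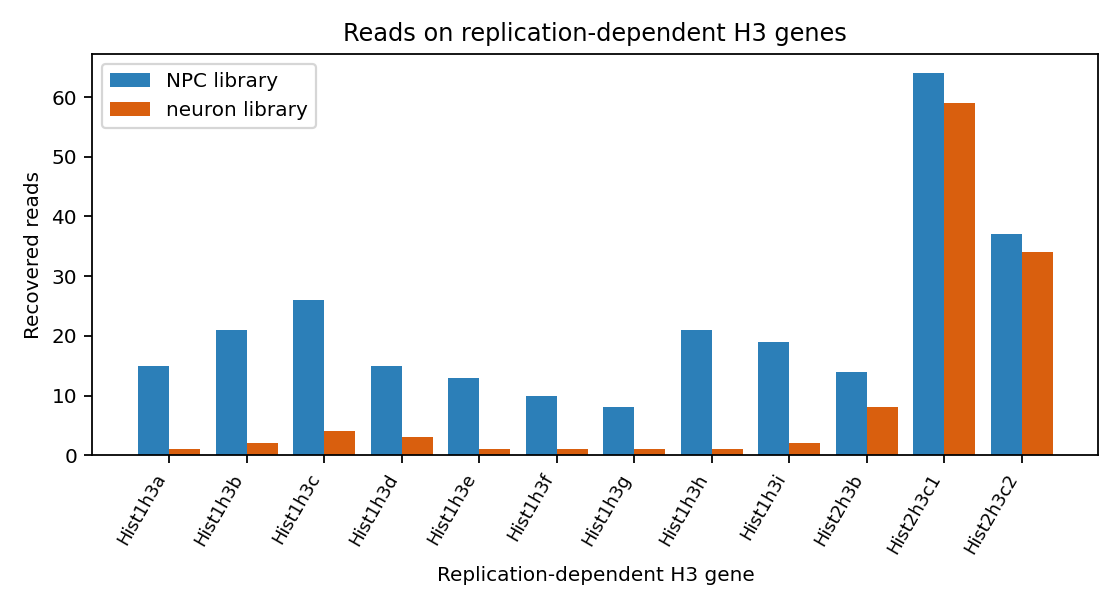
Recovered reads on each of the 12 replication-dependent H3 genes in the NPC library (blue) and the neuron library (orange), not scaled for depth. The 9 Hist1h3 genes have 8 to 26 reads in NPCs and 1 to 4 in neurons, and the Hist2h3 genes have similar reads in both libraries.

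Hist1h2ao and Hist1h2ap, Hist1 H2A genes, are near-identical copies and not separate observations. Of the Hist1h2ao words 93.5% lie in Hist1h2ap, and 93.1% the reverse. Hist1h2ao had 22 reads in NPCs and 2 in neurons, a ratio of 9.29 (2.28 to 81.5). Hist1h2ap had 19 and 1, a ratio of 16.0 (2.55 to 667). The other 21 replication-dependent genes under 1 CPM with more than 3 reads did not pass the plain-ratio rule. Hist4h4, the only Hist4 gene, had 8 and 7 reads. Over the whole class, a median of 51.9% of 50-base words occurred in other genes (0 to 100%) and 34 of 68 genes shared 50% or more. Among variants the median was 9.66%, and only H2afz of the 11 passed 50%.

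Grouped by the transcript model, the 21 genes with under 100 bases after the stem-loop summed to 528 reads in NPCs and 377 in neurons, a ratio of levels of 1.18 (1.03 to 1.35). The 22 genes with at least 100 bases after it summed to 3832 and 4418 reads and were 1.37-fold higher in neurons (1.31 to 1.43). The 25 genes with no motif in the model summed to 1471 and 1125 reads, a ratio of 1.10 (1.02 to 1.19). Hist3h2a and Hist3h2ba, with 1643 and 169 bases after the loop, belong to the group with longer models and hold most of its reads, so this grouping and the Hist3 cluster cannot be told apart. The direction in the shorter group depends on the split: under 50 bases the ratio was 1.09 (0.947 to 1.26), and under 200 bases, which takes in Hist3h2ba, it was 0.863 (0.811 to 0.919) over 2023 and 1979 reads. In the Hist3h2a, Hist3h2ba and Hist2h2be models the polyadenylation signal AATAAA stands in the last 40 bases, and in the Hist1h3b model it does not. It also stands there in the models of Hist1h2bq and Hist1h2br, which were called higher in NPCs. Among abundant variants it is in the H1f0 model but not in those of H3f3b and H2afz. These are a few named models. Whether the signal goes with direction or level across the members was not tested.

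Promoters were read from RefSeq (GRCm38.p6) as 250 bases before to 50 after the start, and 70 of the 79 members matched (61 replication-dependent genes and 9 variants). The octamer ATTTGCAT, an element of H2B promoters bound by Oct factors, was searched on both strands. It stood in 6 of 16 H2B and 7 of 17 H2A promoters and in none of the H1, H3 or H4 promoters of the replication-dependent class, against 1.74% of 32851 promoters. H2A and H2B genes often lie head to head, so windows can share sequence. CCAAT, also on both strands, stood in 52 of 61 replication-dependent promoters and 6 of 9 variant promoters (37.4% of all). Within the replication-dependent class it was in every H1, H2A, H2B and H3 promoter matched but in 3 of 12 H4 promoters. TATAAA stood in 35 of 61 and in 1 of 9 (13.6% of all). GGTCC stood in 26 of 61 and in 6 of 9 (45.5% of all), and in 11 of 12 H4 promoters of the replication-dependent class. AAACACA stood in 9 of 61 and in 1 of 9 (7.18% of all), and in 5 of 6 H1 promoters of that class. These matches are descriptions of letters and no binding was measured here.

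The promoters of the Hist3 genes that were higher in neurons, of Hist1h4i, and of the most abundant variant show this arrangement. Each run covers the 150 bases before the start, with matches of the elements just named in capitals in either orientation.
Hist3h2a (chr11:58954535-58954684, plus strand): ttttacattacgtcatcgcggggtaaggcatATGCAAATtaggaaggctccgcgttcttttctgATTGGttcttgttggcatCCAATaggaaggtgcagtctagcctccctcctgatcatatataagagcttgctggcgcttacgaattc
Hist3h2ba (chr11:58948761-58948910, plus strand): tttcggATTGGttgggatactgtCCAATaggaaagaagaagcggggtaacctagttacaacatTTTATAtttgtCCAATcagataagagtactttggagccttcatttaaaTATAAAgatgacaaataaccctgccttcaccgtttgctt
Hist1h4i (chr13:22041363-22041512, minus strand): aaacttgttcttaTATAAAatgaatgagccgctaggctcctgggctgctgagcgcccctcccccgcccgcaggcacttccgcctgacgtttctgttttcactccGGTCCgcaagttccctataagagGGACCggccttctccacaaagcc
H3f3b (chr11:116024505-116024654, minus strand): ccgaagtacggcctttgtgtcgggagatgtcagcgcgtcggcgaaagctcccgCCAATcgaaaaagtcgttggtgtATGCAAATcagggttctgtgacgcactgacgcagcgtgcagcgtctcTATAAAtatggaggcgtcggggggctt
In Hist3h2a the octamer begins 119 bases before the start, and in Hist3h2ba a TATAAA begins 39 bases before it and no octamer is in the window. In Hist1h4i the sense GGTCC begins 46 bases before the start. H3f3b was the only variant promoter with an octamer, which begins 74 bases before the start, and it also has TATAAA 27 bases and CCAAT 97 bases before it.

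Genes that supply and process histone mRNA were mostly near equality. Of 25 such genes, all past 1 CPM, 2 were called higher in NPCs and 0 higher in neurons, beside 6.73% and 3.85% of all genes. The median log2 ratio was -0.09, and 17 were higher in NPCs. Cdk2, the S-phase kinase, stood at 37.7 CPM in NPCs and 15.01 in neurons, a ratio of 2.51 (2.22 to 2.85), and its partner Ccne1 at 10.4 and 4.70 CPM, a ratio of 2.22 (1.77 to 2.80). Slbp, which binds the stem-loop, stood at 49.3 and 27.6 CPM, a ratio of 1.79 (1.63 to 1.97). E2f1, an activator of S-phase genes, had a ratio of 1.85 (1.67 to 2.04). Npat, the coactivator of the clusters, stood at 63.2 and 55.6 CPM, a ratio of 1.14 (1.06 to 1.22). Lsm11, a subunit of the U7 particle that cuts the 3' end, went the other way, with 24.95 CPM in NPCs and 49.6 CPM in neurons, 1.99-fold higher in neurons.

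Among histone chaperones, 29 of 30 listed genes were found past 1 CPM, 2 were called higher in NPCs and 0 higher in neurons, against the same 6.73% and 3.85%. The median log2 ratio was -0.20, and 22 were higher in NPCs. Asf1b, the H3-H4 chaperone of dividing cells, stood at 8.82 and 3.03 CPM, a ratio of 2.91 (2.22 to 3.87), while its paralog Asf1a had a ratio of 1.15 (1.06 to 1.25). Mcm2, a helicase subunit that also holds H3-H4, had a ratio of 2.22 (2.10 to 2.36). Chaf1a, of the complex that places replication-dependent H3, stood at 52.1 and 26.5 CPM, a ratio of 1.97 (1.79 to 2.17), and Tonsl had a ratio of 1.86 (1.56 to 2.23). Hira, which places the replacement H3, stood at 150.0 and 167 CPM, 1.11-fold higher in neurons.

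All 24 genes of an S-phase list were higher in NPCs, 11 of them called and 0 called higher in neurons, where all genes gave 6.73% and 3.85%. Their median log2 ratio was -0.97. Ratios ran from 1.08 in Rfc3 (0.972 to 1.198) to 3.85 in Cdc6 (3.11 to 4.80), with Mki67 at 3.44, Mcm3 at 3.35, Cdt1 at 2.98 and Pcna at 1.81. Progenitor markers were higher in the same library, with medians of -1.57 over 8 radial glial genes and -1.52 over 3 intermediate progenitor genes, as were the pericyte, endothelial and oligodendrocyte lineage markers given above. The 6 neuron markers, Dcx among them, were higher in neurons with a median of 0.69, and 2 of them were called. They summed to 5744 CPM in NPCs and 8652 CPM in neurons, so neuron marker RNA was abundant in the NPC library too.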

How the data were processed

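Both libraries were made from TRIzol total RNA, per the labels' protocols. Per the submitters' processing notes, the tools were TopHat 1.2.0, SAMtools 0.1.18, CASAVA 1.9 and edgeR (no version), and the build was mm9, with no role or order. Not given in the sources used here are the annotation, the use of strand and the treatment of reads that fit several places. The deposited values are a signal, whole multiples of a step in each library (0.952727 in NPCs, 1.12797 in neurons), as rescaled read counts are. Values divided by it came within 0.05 of a whole read for 100% (NPC) and 99.8% (neuron) of genes. Neuron values under 0.01 were taken as 0.

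CPM were computed by dividing the deposited values of both libraries by the mean of their sums, 25698104, which keeps the authors' scaling. The design written first assumed counts or CPM, and the unit was changed once the values were seen. Ratios carry exact 95% Clopper-Pearson intervals from the reads. Members, lists and the rule for named genes were chosen with earlier results of these data known: members with more than 3 reads may be named, with full values from 1 CPM upward, and of each companion list up to 4 genes with the largest log2 ratio plus a few set genes. The chaperone list holds 1 gene that was not found, Srcap. Sequence words of 50 bases were compared in both strands over GENCODE M21 transcripts. Scaling by TMM used edgeR 4.0.16 in R 4.3.3, and the rest Python 3.11.15 with scipy 1.17.1. The calculations were tested on simulated data.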

Additional observations from a re-analysis of the deposited data

How the results depend on the processing

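No paired analysis was possible because each group has 1 library. The median of the replication-dependent genes lies near 0 and took either sign, from -0.17 to 0.37. The summed ratios of the class and of the variants did not cross 1 under the settings tried. None of these settings left out the whole Hist3 cluster. The Hist1 and Hist2 sums were higher in NPCs, so the direction of the class sum rests on the Hist3 genes and is not shown to be stable. The Hist2 sum was not computed without Hist2h2be, its most abundant gene. The ratio of genes with shorter models after the stem-loop did cross 1, from 1.18 at 100 bases to 0.863 at 200, where Hist3h2ba joins them. That of the longer models went from 0.733 to 0.701. Without Hist1h2ao and Hist1h2ap the Hist1 H2A ratio went from 1.91 to 1.09. With Hist1h2bq and Hist1h2br counted once, the class had 1 of 15 genes apart and a median of 0.072. These splits and counts were added after the data were seen. The count of replication-dependent genes at least 2-fold apart (2 of 16) was 0 with 5 CPM added, 0 of 4 with a minimum of 10 CPM, 4 at 1.5-fold (3 higher in NPCs), and 13 by the plain ratio with its interval, a rule added after the data were seen. Their median log2 ratio was -0.17 over 47 genes with more than 3 reads and 0.37 over 4 genes at 10 CPM. The NPC to neuron ratio of their sum (0.832) was 0.872 when scaled by total reads and 0.971 without the most abundant member, Hist3h2a. No interval was computed for the ratio without Hist3h2a, so its side of 1 is not settled. For variants, the count (0) was 3 at 1.5-fold. Their median (-0.19) was -0.25 when scaled by total reads and -0.11 with H2afx moved to the other class. Their sum ratio (1.21) was 1.27 when scaled by total reads and 1.34 without H3f3b. The variant share of histone reads was 90.5% in NPCs and 85.6% in neurons without the most abundant member, and 91.0% and 89.1% with H2afx moved. With 5 CPM added, the count fell to 1 in the mRNA supply list, 1 in the chaperone list and 7 in the S-phase list. Scaled by total reads, it was 3 in the chaperone list and 14 in the S-phase list. The cause was not tested where the construction does not show it. Over 138 named genes and 5 settings, 659 values stayed near and 31 moved, 26 of them when scaled by total reads. Scaling by total reads shifts each log2 ratio of neuron to NPC by -0.067 before any CPM is added. It turns the sign of Hist4h4 and of the list genes Cabin1, Nap1l4, Atrx, Cstf2, Ncbp2, Eri1 and Ipo4, all with ratios near 1. The Hist1h3 ratio ran from 7.83 to 8.59 under its alternatives.

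These data hold 1 library per group, so no difference carries an error between samples. Read numbers limit most replication-dependent genes, 52 of which lie under 1 CPM. Copies with shared sequence limit the values of single genes in the clusters.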

Other observations

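Other histone genes lie outside the symbol rule. Cenpa, which encodes the H3 variant of centromeres, had 1184 reads in NPCs and 369 in neurons. Its level was 43.9 CPM in NPCs and 16.2 CPM in neurons, a ratio of 2.71 (2.41 to 3.05), and it passed the 2-fold rule that none of the 10 variants at 1 CPM or more passed. The germline linker genes H1foo, H1fnt and Hils1 had 0 reads in both libraries, which allows up to 0.111 CPM in NPCs and 0.132 CPM in neurons.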
